A study of Mus musculus with 10 samples.

Results

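RNA polymerase II was called over unusually long stretches of DNA at 548 of 10991 promoter regions in mouse Th1 cells. A region is the DNA covered by promoter peaks of any of 6 libraries that overlap by at least 1 bp, and it was kept when at least 1 library had a peak wider than 5000 bp in it. Members were thus selected on the peak widths measured in these same 6 libraries. The threshold takes 4.99% of all regions, and the widths, and every class made from them, describe how these regions were chosen and carry no test. The cells were primary Th1 cells from mice (strain: Balb/c DO11.10), grown from peripheral CD4+ T cells that had been primed toward Th1, then expanded on an interleukin 2 analogue, which was withdrawn for the last day. Polymerase was precipitated with the antibody 8WG16 (ab817) and sequenced (ChIP-seq). There were 3 groups of 2 libraries: no restimulation (NR), restimulation for 30 min, and restimulation for 2 h. The stimulus was anti-CD3 bound to the plate (5 µg/ml) plus anti-CD28 in solution (2.5 µg/ml), and no group was of another strain or genotype. The labels number the libraries as replicates 1 and 2 but name no animal or culture behind them, so any p-value here reflects library-to-library spread that may be purely technical.

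RNA polymerase II transcribes all protein-coding genes and many non-coding ones. At most active genes in animals it pauses shortly after the start site, which gives ChIP-seq a narrow peak at the promoter. At heavily transcribed genes polymerase is also dense along the gene and beyond its 3′ end, and a peak caller can then join promoter, gene body and termination zone into 1 long interval. In T helper cells the T cell receptor and CD28 switch on immediate early genes within minutes and cytokine, receptor and metabolic genes over the following hours.

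The peak lists give no read counts, so the depth of each library is unknown. Peaks of all kinds numbered 19888 in replicate 1 and 17627 in replicate 2 at rest, 15330 and 23299 after 30 min, and 20086 and 21743 after 2 h. Pairs of values below follow the same order of replicates. The lowest local background that pileup and fold enrichment imply for any promoter peak differed between libraries: it was 0.659 and 3.41 at rest, 1.57 and 3.30 at 30 min, and 2.48 and 3.61 at 2 h. It was higher in replicate 2 of each group, as was the number of broad peaks, and the part of depth in the widths was not tested. Replicate 2 at 30 min stood apart with 486 broad peaks against 139 in replicate 1. Of 10 Th1 and T helper markers, 9 had a promoter peak in all 6 libraries, and Cxcr3 had a peak in 2. Markers of B cells (Ms4a1, Cd79a, Pax5), NK cells (Ncr1, Klrb1c), Th17 cells (Il17a) and regulatory T cells (Foxp3) had none. Of 5 myeloid markers only Cd68 lay in a called region, which is the broad region over the neighbouring translation factor gene Eif4a1. Of 4 Th2 markers, Gata3 and Il4 had a peak in 5 libraries, Il13 in 2 and Il5 in none. Cd8a had none, and Cd8b1 of CD8 T cells had a peak of at most 576 bp in 3.

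The start sites of genes in the widest regions differ in base composition. The 250 bases before the start of the gene are given for the 2 widest regions of each class described below, as RefSeq has them for the build GRCm38.p6 (the C57BL/6J reference, whereas the cells were Balb/c), 5′ to 3′ in the direction of transcription. Capitals mark the only match to any of the 5 motifs searched, the ETS-type motif CCGGAAG in the Nabp1 promoter. Nabp1 and Gimap4 are broad at rest, Furin and Nr4a3 at 30 min, and Gfi1 and Myo1g at 2 h. The start shown for Furin is its own, whereas the authors assigned its region to the neighbouring gene Fes.
Nabp1, chr1:51478400-51478649, minus strand: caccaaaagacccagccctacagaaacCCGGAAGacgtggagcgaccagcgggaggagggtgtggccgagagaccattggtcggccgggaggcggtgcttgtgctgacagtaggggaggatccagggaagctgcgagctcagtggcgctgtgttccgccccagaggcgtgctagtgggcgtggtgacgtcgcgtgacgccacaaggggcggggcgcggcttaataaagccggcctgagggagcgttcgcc
Gimap4, chr6:48684328-48684577, plus strand: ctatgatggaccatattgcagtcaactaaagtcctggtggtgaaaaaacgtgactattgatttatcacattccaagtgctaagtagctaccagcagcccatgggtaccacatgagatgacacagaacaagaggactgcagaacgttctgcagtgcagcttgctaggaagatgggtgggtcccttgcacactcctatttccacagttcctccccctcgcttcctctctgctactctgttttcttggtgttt
Furin, chr7:80402813-80403062, minus strand: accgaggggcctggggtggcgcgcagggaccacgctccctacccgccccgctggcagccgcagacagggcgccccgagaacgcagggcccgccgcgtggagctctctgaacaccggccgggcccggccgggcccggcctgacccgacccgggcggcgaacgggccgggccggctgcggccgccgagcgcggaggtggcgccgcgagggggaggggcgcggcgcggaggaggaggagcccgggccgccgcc
Nr4a3, chr4:48045055-48045304, plus strand: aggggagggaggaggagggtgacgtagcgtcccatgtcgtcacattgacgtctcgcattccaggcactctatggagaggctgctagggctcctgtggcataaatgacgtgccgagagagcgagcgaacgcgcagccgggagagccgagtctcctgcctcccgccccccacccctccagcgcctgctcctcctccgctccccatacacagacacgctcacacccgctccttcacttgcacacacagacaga
Gfi1, chr5:107724344-107724593, minus strand: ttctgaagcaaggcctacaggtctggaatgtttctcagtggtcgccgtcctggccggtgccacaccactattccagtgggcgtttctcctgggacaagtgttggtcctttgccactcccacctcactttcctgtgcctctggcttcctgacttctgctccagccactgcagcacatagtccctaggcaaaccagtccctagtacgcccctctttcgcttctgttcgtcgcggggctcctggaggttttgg
Myo1g, chr11:6520959-6521208, minus strand: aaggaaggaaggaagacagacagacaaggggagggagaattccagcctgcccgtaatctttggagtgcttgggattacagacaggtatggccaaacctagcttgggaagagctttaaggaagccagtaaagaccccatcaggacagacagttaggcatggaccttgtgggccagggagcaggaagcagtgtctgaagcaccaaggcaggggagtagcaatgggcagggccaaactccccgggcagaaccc

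Over the 300 bases around the start (250 before, 50 after) the GC content was 66.0% at Nabp1, 46.0% at Gimap4, 82.3% at Furin, 64.7% at Nr4a3, 58.0% at Gfi1 and 55.0% at Myo1g. The ratio of observed to expected CpG was 1.01 at Furin and 0.902 at Nabp1, the range of CpG islands, and 0.252 at Gimap4 and 0.0910 at Myo1g, where the dinucleotide is depleted. A CpG-rich start is therefore not shared by the widest regions.

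Few regions were broad in every library. The number of regions with a peak over 5000 bp was 68 (0.619% of all regions) and 104 (0.946%) in the NR libraries, 136 (1.24%) and 485 (4.41%) at 30 min, and 280 (2.55%) and 394 (3.58%) at 2 h. Broad peaks made up 6.19% and 7.21% of all DNA called at promoters at rest, 12.8% and 24.3% at 30 min, and 17.1% and 20.8% at 2 h. As group means these shares were 6.70% ± 0.722 (SD, n = 2) at rest, 18.5% ± 8.13 (SD, n = 2) at 30 min and 18.9% ± 2.62 (SD, n = 2) at 2 h. The 30 min value thus rests on replicates that differ by more than either differs from the 2 h values.

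The most frequent pattern was a peak over the threshold in replicate 2 of 30 min alone, with 136 regions. A further 106 were broad in that library and both 2 h libraries, 70 in it and replicate 2 of 2 h, and 53 in all 6 libraries. Another 48 were broad in all 4 stimulated libraries and in neither NR library, and 37 only in replicate 2 of 2 h. At 30 min every region broad in replicate 1 was also broad in replicate 2, while 349 were broad in replicate 2 only. Without replicate 2 of 30 min, 412 regions would be members. Height did not enter the rule, but it was read from the same peak calls as width, so its ranks are a description. Within their own lists, the median percentile of broad peaks for summit pileup was 98.5 and 97.7 at rest, 97.5 and 93.9 at 30 min, and 96.1 and 95.6 at 2 h. For fold enrichment it was 98.2 and 89.1 at rest, 97.2 and 85.9 at 30 min, and 95.0 and 88.2 at 2 h.

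Regions fell into 3 classes and a remainder. Regions broad at rest, over 5000 bp in both NR libraries, numbered 62 (0.564% of all regions). Those broad at 30 min, in both 30 min libraries and in neither NR library, numbered 57 (0.519%). Those broad at 2 h, in both 2 h libraries, in neither NR library and not in both 30 min libraries, numbered 128 (1.16%). The other 301 (2.74%) were broad in another set of libraries. All 3 classes had the same size with or without replicate 2 of 30 min, but the line between the classes of 30 min and 2 h rests on replicate 1 of 30 min: without that library 376 regions would count as broad at 30 min and 22 as broad at 2 h. Just inside the threshold lay St3gal4 at 5006 bp and Eapp and Isy1 at 5029 bp, and just outside lay Mir22hg at 4996 bp, the cytokine gene Il3 at 4995 bp and Atp2b1 at 4994 bp.

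Median widths per library show how the classes overlap. In the class broad at rest the median was 7504 and 8203 bp in the NR libraries, 8254 and 13104 bp at 30 min, and 10494 and 12256 bp at 2 h. The class of 30 min had medians of 2223 and 2607 bp at rest, 6567 and 10272 bp at 30 min, and 8491 and 9590 bp at 2 h. For 2 h they were 1749 and 1961 bp, then 2568 and 6945 bp, then 6468 and 7801 bp. Regions with no broad peak had medians between 522 and 1155 bp in the 6 libraries.

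**Figure D1:**
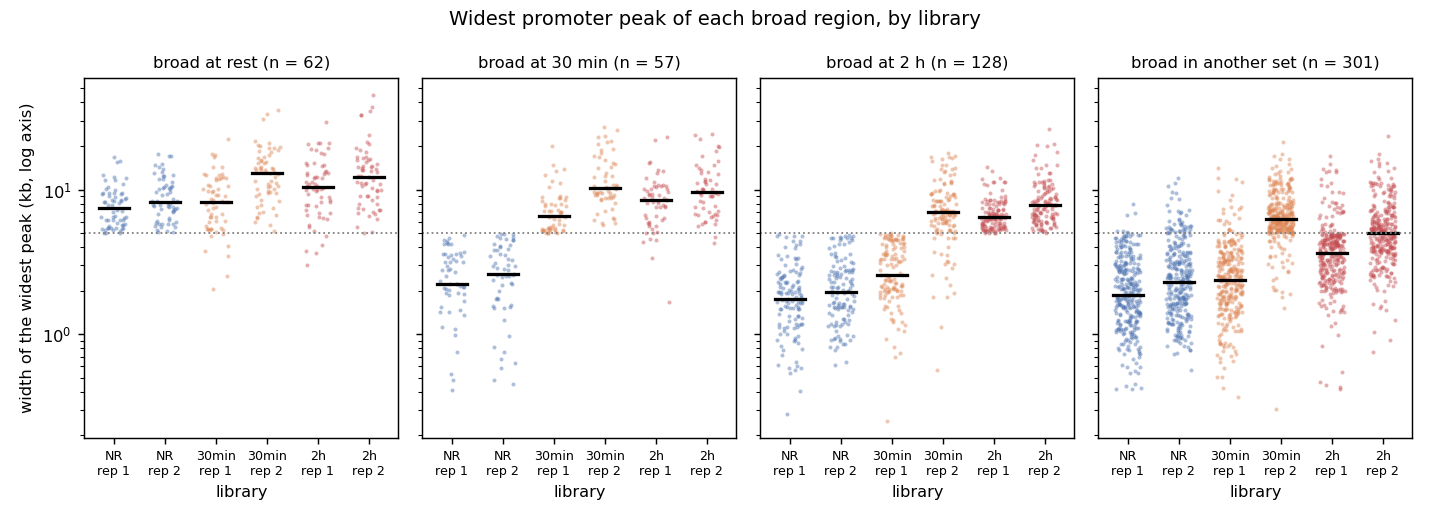
Width of the widest promoter peak in each library (kb, log axis) for the 548 broad regions in 4 classes; points are regions with a peak, black bars are medians over all regions of the class, and the dotted line is the 5 kb threshold. In the class broad at 2 h the median of replicate 1 at 30 min (2568 bp) lies under the line and that of replicate 2 (6945 bp) above it.

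Of the 62 regions broad at rest, 4 belonged to listed T cell identity genes, 4 to listed cytokine and chemokine genes and 8 to the histone and small RNA list. Nabp1 (chr1:51461277-51481011; regions are given in mm10, as deposited), which encodes a single-stranded DNA binding protein, had the widest region at rest on the mean of both NR libraries. The region runs from upstream of the start over every exon and intron to 3692 bp past the 3′ end. Its peak measured 16748 and 17121 bp at rest, 17259 and 19661 bp at 30 min, and 17659 and 18179 bp at 2 h, so its width moved little. Pim1 (chr17:29488384-29503585), a kinase gene induced by cytokines through STAT factors, had 12109 and 12646 bp at rest, 12077 and 13680 bp at 30 min, and 15152 and 13725 bp at 2 h. The 2 h values lay above the NR values, and those of 30 min overlapped them.

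Il2ra (chr2:11634005-11669093), the gene of the high-affinity interleukin 2 receptor chain, differed more between times. It had 8834 and 16991 bp at rest, 22243 and 33211 bp at 30 min, and 29268 and 34946 bp at 2 h. Both stimulated groups lay above the NR libraries, and the 30 min and 2 h groups overlapped. Gimap4 (chr6:48674106-48711860), a member of a cluster of lymphocyte GTPase genes, had 15855 and 17751 bp at rest, 17492 and 35303 bp at 30 min, and 21017 and 37151 bp at 2 h. The long intervals in replicate 2 of both stimulated groups also took in Gimap6 and Gimap9.

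Among regulators of T cell identity, Ets1 held the widest peak of the series. Ets1 (chr9:32694731-32740048) encodes a transcription factor of the ETS family, and its peak, nearly all inside the gene, measured 9466 and 12367 bp at rest, 10637 and 30911 bp at 30 min, and 21070 and 45240 bp at 2 h. Satb1 (chr17:51804592-51837679), a chromatin organiser, had 12190 and 13325 bp at rest, 12556 and 21632 bp at 30 min, and 20578 and 33006 bp at 2 h. In Ets1 and Satb1 both 2 h libraries exceeded both NR libraries, and the 30 min libraries lay on both sides of an NR library.

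Prkcq (chr2:11166577-11183046) encodes the protein kinase C isoform of the T cell synapse, and its peak had 9360 and 14928 bp at rest, 8464 and 16470 bp at 30 min, and 15240 and 16044 bp at 2 h. A region of 12689 and 13961 bp at rest, assigned by the authors to the model gene Gm13546, lay inside Cytip, which encodes a cytohesin-interacting protein. It kept a width of 12083 to 14122 bp in the 4 stimulated libraries. The region assigned to Gm8369 covered mostly Ms4a6c, a membrane-spanning protein gene, with 15575 and 14807 bp at rest, 5291 and 20396 bp at 30 min, and 17972 and 20581 bp at 2 h. Replicate 1 of 30 min was the narrowest of the 6 libraries there, and replicate 2 lay in the range of 2 h.

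Of the 57 regions of the 30 min class, 11 belonged to listed immediate early and activation transcription factor genes. Nr4a3 (chr4:48041624-48068746), an orphan nuclear receptor induced by the T cell receptor, had peaks of 479 and 628 bp at rest, 14671 and 27123 bp at 30 min, and 13614 and 14902 bp at 2 h. Its relative Nr4a1 (chr15:101265574-101278051) was listed with no peak and with 483 bp at rest, and with 11034 and 12478 bp at 30 min and 11213 and 11338 bp at 2 h. Egr3 (chr14:70073365-70090537), a zinc finger factor, was listed with no peak in both NR libraries and had 12511 and 17173 bp at 30 min and 10455 and 10963 bp at 2 h. For Egr3 the 2 h libraries lay below the 30 min libraries, while for Nr4a1 these groups overlapped.

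Egr2 shares its region with the small gene Ado, to which the authors assigned it; the region had 1469 and 1544 bp at rest, 7853 and 12325 bp at 30 min, and 10168 and 11706 bp at 2 h. Irf4 (chr13:30746881-30771347), a factor required for effector T cells, had 3513 and 2772 bp at rest, 11442 and 23114 bp at 30 min, and 23134 and 24360 bp at 2 h. Irf8 (chr8:120734317-120758526), its relative, had 3135 and 4617 bp, then 6474 and 23637 bp, then 10505 and 23957 bp. At Irf4 both 2 h libraries lay above both 30 min libraries, though barely above the wider of them, and for Irf8 these groups overlapped.

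The region assigned to Fes (chr7:80381580-80407424) covered the whole of its neighbour Furin, which encodes a protease that processes secreted proteins. It measured 4199 and 3836 bp at rest, 20073 and 25751 bp at 30 min, and 21910 and 19585 bp at 2 h. Hcst, an adaptor gene, shared a region with Nfkbid, which encodes an atypical IκB protein of the NF-κB pathway. That region (chr7:30417735-30432821) had 1426 and 2543 bp at rest, 13429 and 15087 bp at 30 min, and 13547 and 13078 bp at 2 h. Both regions were about as wide at 2 h as at 30 min, with overlapping groups at Nfkbid and Furin.

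Cytokine genes of the class included Il21 (chr3:37217617-37233866), with 2045 and 813 bp at rest, 13958 and 16029 bp at 30 min, and 15161 and 15683 bp at 2 h. Cd40lg (chrX:57210518-57228515), the ligand by which helper T cells activate B cells, had 412 and 581 bp, then 8323 and 17964 bp, then 15507 and 17083 bp. Srgn (chr10:62488647-62509932), the core protein of granule proteoglycans, had 2217 and 2470 bp, then 6567 and 21286 bp, then 7880 and 14169 bp. In each of these 3 genes every stimulated library lay above both NR libraries, as the class requires for 30 min, and the 2 stimulated groups overlapped.

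Of the 128 regions of the 2 h class, 21 belonged to listed translation genes, 7 to activation receptors and surface molecules and 6 to the NF-κB pathway. Gfi1 (chr5:107712612-107733371), a transcriptional repressor, had the widest mean at 2 h, with peaks of 1893 and 4628 bp at rest, 2642 and 6646 bp at 30 min, and 13452 and 20760 bp at 2 h. Traf1 (chr2:34948103-34966404), an adaptor of tumour necrosis factor receptors, had 1692 and 1895 bp at rest, 3914 and 16237 bp at 30 min, and 11854 and 18302 bp at 2 h. Birc3 (chr9:7859973-7874230), a ubiquitin ligase of the same pathway, had 2101 and 2701 bp, then 4949 and 14040 bp, then 11957 and 14198 bp. Birc3 was just under the threshold in replicate 1 of 30 min, which kept it out of that class.

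Tnfaip3 (chr10:19006026-19016576) encodes A20, an inhibitor of NF-κB signalling. Its peak had 588 and 1532 bp at rest, 1489 and 3066 bp at 30 min, and 8184 and 10503 bp at 2 h, and it was below the threshold in both 30 min libraries. Only 22 members had a peak over 5000 bp in both 2 h libraries and in no other. Rgs16, a regulator of G protein signalling, was among them, with 282 bp and no peak at rest, no peak and 563 bp at 30 min, and 6986 and 7314 bp at 2 h. Cblb, a ubiquitin ligase that restrains T cell activation, had 863 and 1614 bp, then 1982 and 3607 bp, then 7913 and 10164 bp.

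Other leading genes of the 2 h class had a broad peak in replicate 2 of 30 min. Thy1 (chr9:44038444-44055197), a surface glycoprotein of T cells, had 4777 and 4590 bp at rest, 4535 and 16754 bp at 30 min, and 14361 and 15964 bp at 2 h. Rbpj (chr5:53585308-53599334), the DNA-binding partner of Notch, had 2591 and 2625 bp, then 4474 and 13816 bp, then 11326 and 14027 bp. Gpr183 (chr14:121945975-121966013), an oxysterol receptor that guides lymphocyte migration, lies inside Ubac2, and its region had 4439 and 3933 bp, then 4227 and 8378 bp, then 8173 and 20039 bp. At Thy1 and Gpr183 replicate 1 of 30 min was no wider than the wider NR library, and at Rbpj it lay between the NR and the 2 h values. Replicate 2 of 30 min was above the lower 2 h value at all 3 genes.

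A pair of members of the class turned on replicate 2 of 2 h for their rank. Myo1g (chr11:6502975-6529250), a myosin of blood cells, had 905 and 2071 bp at rest, 2570 and 6745 bp at 30 min, and 6594 and 26276 bp at 2 h. Lcp1 (chr14:75174617-75194839), which encodes the actin-bundling protein L-plastin, was listed with no promoter peak in 3 libraries (both NR libraries and replicate 1 of 30 min), and had 5856 bp in replicate 2 of 30 min and 6303 and 20223 bp at 2 h. The Lcp1 region lies over an inner start site of a gene of 99738 bp.

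**Figure D2:**
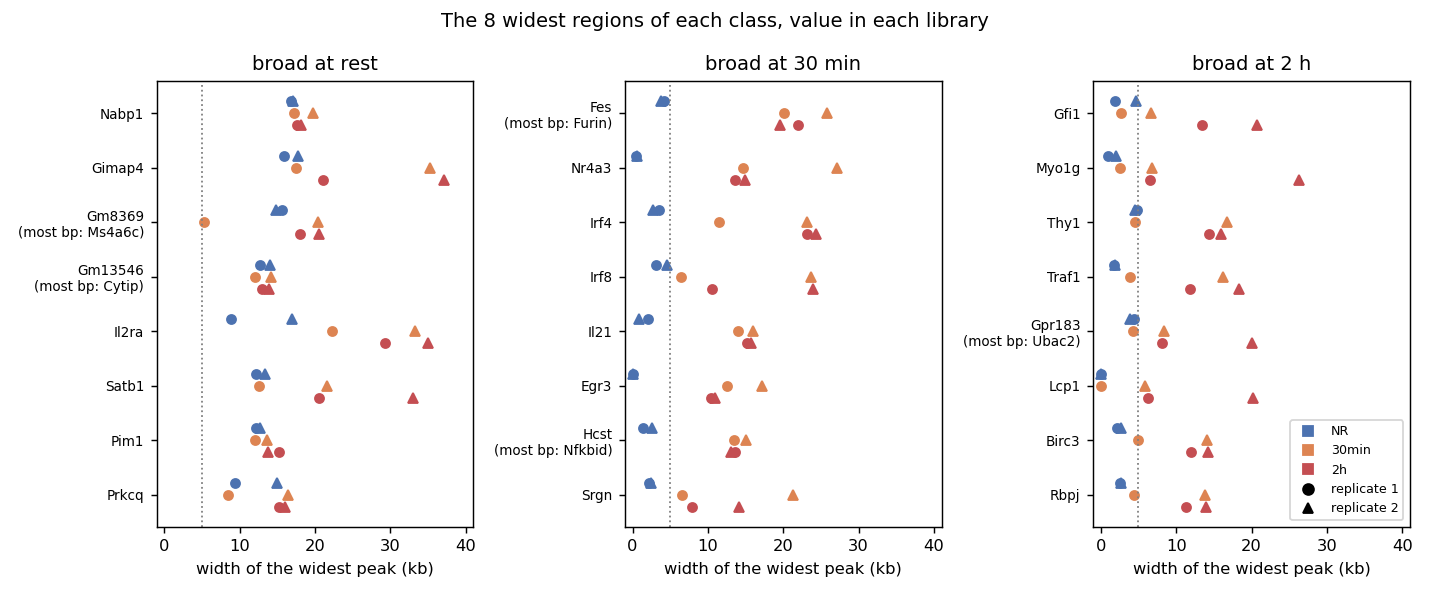
Width of the widest peak (kb) in each of the 6 libraries for the 8 widest regions of each class, ranked by the mean of the group that names the class; circles are replicate 1, triangles replicate 2, the dotted line is 5 kb, and the gene with most bp is given where it is not the assigned gene. Nabp1 stays between 16748 and 19661 bp in all libraries, and Egr3 goes from no peak in the NR libraries to 12511 and 17173 bp at 30 min.

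Among the 301 regions of other patterns, 136 rest on replicate 2 of 30 min alone. Ccnl1, a cyclin that regulates splicing, had 1321 and 1644 bp at rest, 2717 and 16208 bp at 30 min, and 2596 and 2856 bp at 2 h, and was picked after its values were seen. Nab2, a corepressor of the EGR factors, had 1550 and 3243 bp, then 3614 and 11877 bp, then 3488 and 3997 bp. Nfatc1, a calcium-regulated factor, had 1451 and 2160 bp, then 3262 and 11815 bp, then 3261 and 4620 bp. For these 3 genes replicate 1 of 30 min lay inside the range of the 2 h libraries, so a broad peak at 30 min rests on 1 library.

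Gene groups were counted against the 4.99% of all regions with a broad peak, and medians of the widest peak against 1292 bp over all regions. The gene lists were made with earlier results on these samples known, and a region can serve several listed genes. Of 32 immediate early and activation transcription factors, 22 lay in a broad region, 11 of them in the class of 30 min, and the median widest peak was 10339 bp. Besides those above, Egr1 had 529 and 976 bp at rest, 7114 and 13069 bp at 30 min and 6181 and 7097 bp at 2 h. Myc had 4652 and 4969 bp at rest, just under the threshold, and 8970 to 10122 bp in the stimulated libraries. Jun, Id2 and Hif1a were broad at rest.

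Cytokine and chemokine genes lay in a broad region in 13 of 21 cases, with a median of 5736 bp. Ifng, the signature cytokine of Th1 cells, had 8006 and 3459 bp at rest, 9191 and 10957 bp at 30 min, and 10545 and 12175 bp at 2 h, so only 1 NR library was broad. Tnf, Lta and Ltb share a region that was broad at rest with 7836 and 7861 bp, and had 8020 and 13267 bp at 30 min and 12700 and 7998 bp at 2 h. Ccl4 had no peak at rest, 4861 and 5276 bp at 30 min, and 5205 and 5682 bp at 2 h.

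Activation receptors and surface molecules were members in 17 of 23 cases (median 7861 bp), 7 of them in the class of 2 h. Icos, a costimulatory receptor, was broad at rest with 8576 and 10166 bp, and reached 11953 and 16166 bp at 2 h. Cd2, an adhesion receptor, had 2943 and 4779 bp at rest, 5716 and 21568 bp at 30 min, and 10599 and 22350 bp at 2 h. Tnfrsf9, the receptor 4-1BB, had no peak and 812 bp at rest, 2220 and 9295 bp at 30 min, and 5397 and 14740 bp at 2 h. Ctla4 was in the class of 30 min, with 5388 and 10817 bp then.

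Of the NF-κB list 11 of 18 genes were members (median 6084 bp), none at rest, 2 in the class of 30 min and 6 in that of 2 h. Nfkbia, the inhibitor IκBα, had 1118 and 1559 bp at rest, 7257 and 8643 bp at 30 min, and 8530 and 9615 bp at 2 h, whereas Nfkb1, a subunit of the factor, had 605 and 816 bp, then 1091 and 3704 bp, then 5268 and 8789 bp. Feedback and signalling regulators were members in 18 of 23 cases, with a median of 9052 bp. Cish, a suppressor of cytokine signalling, was broad at rest with 10957 and 10496 bp and had 20925 and 21220 bp at 2 h. T cell identity genes were members in 11 of 20 cases (median 7966 bp), and Cd3e, Cd3d and Cd4 were not, with widest peaks of 4496, 2417 and 4443 bp.

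Translation and ribosomal protein genes were members in 46 of 99 cases, with a median of 4469 bp. None was broad at rest, 3 were in the class of 30 min and 21 in that of 2 h. The list was made by symbol, so the 99 also include genes that encode no ribosomal protein. These are Rps19bp1 and the kinase genes whose symbols start with Rps6k, none of them a member. Rpl3 and Rpl32, in members assigned to Snord43 and Snora7a, are not among the 99. Eef1a1, an elongation factor, had 2223 and 2198 bp at rest, 8872 and 9521 bp at 30 min, and 9546 and 9590 bp at 2 h. Rpsa had 1799 and 2672 bp, then 3287 and 8650 bp, then 8310 and 8653 bp. The glycolysis and metabolism list also holds the chaperone genes Hspa8, Hsp90ab1, Hsp90aa1 and Hspa5. Its genes were members in 9 of 21 cases (median 4175 bp), 7 of them in the class of 2 h. Those 7 include the chaperone genes Hspa8, Hsp90ab1 and Hspa5. Ldha, also in that class, had 2231 and 1990 bp at rest and 6554 and 6809 bp at 2 h. Its widest peak, however, lay in replicate 2 of 30 min.

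Housekeeping and cytoskeleton genes were members in 19 of 25 cases, with a median of 7342 bp, and 5 of them were broad at rest. Actb, the beta actin gene, had 9436 and 7461 bp at rest and 14356 to 15507 bp in the 4 stimulated libraries. The long non-coding RNA genes Neat1 and Malat1 were broad at rest, with 8358 and 10305 bp at Neat1 and 5865 and 10070 bp at Malat1. Among assigned genes, 40 of the 548 (7.30%) were microRNA or small nucleolar RNA genes, against 1.53% of all regions, and 38 of those 40 lay over a coding gene. Such small genes sit inside introns or next to the start of longer hosts.

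The broad intervals lay mostly downstream of the start site. Taken over the widest peak of each member, the median share downstream of the assigned start was 79.4%, against 60.3% over all regions. It was 76.5% in the class broad at rest, 86.4% in that of 30 min and 78.2% in that of 2 h. More than 50% lay downstream in 453 of 548 members (82.7%), against 67.4% of all regions. In bp the median was 1642 upstream and 5696 downstream. A stretch of over 5000 bp lay downstream in 345 members and upstream in 67. The shares come from the same peaks that chose the members, so they are given without a test.

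At 95 members the larger part lay upstream of the assigned start. When the start of the RefSeq protein-coding gene with most bp under the peak was used instead, 65 of these 95 lay mostly downstream: at 45 that gene was another one than the assigned gene, and at 20 it was the same gene with another start site. By that start the median downstream share was 89.0% for members and 73.7% for all regions. Choosing the gene with most bp favours the downstream side by construction. For 30 of the 95 the upstream position remained.

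Several of the members with most upstream DNA lie over another gene or an inner start. At Satb1 25543 bp lay upstream of the assigned start, but 87.0% of the peak lay downstream of the start that RefSeq gives for the gene. The Fes region had 19938 bp upstream and 92.7% downstream of the start of Furin. For Cyb5d1 it was 16995 bp, over the histone demethylase gene Kdm6b, for Gm16157 16439 bp inside Fam169b, and for Lcp1 15712 bp inside Lcp1 itself, upstream of an inner start.

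**Figure D3:**
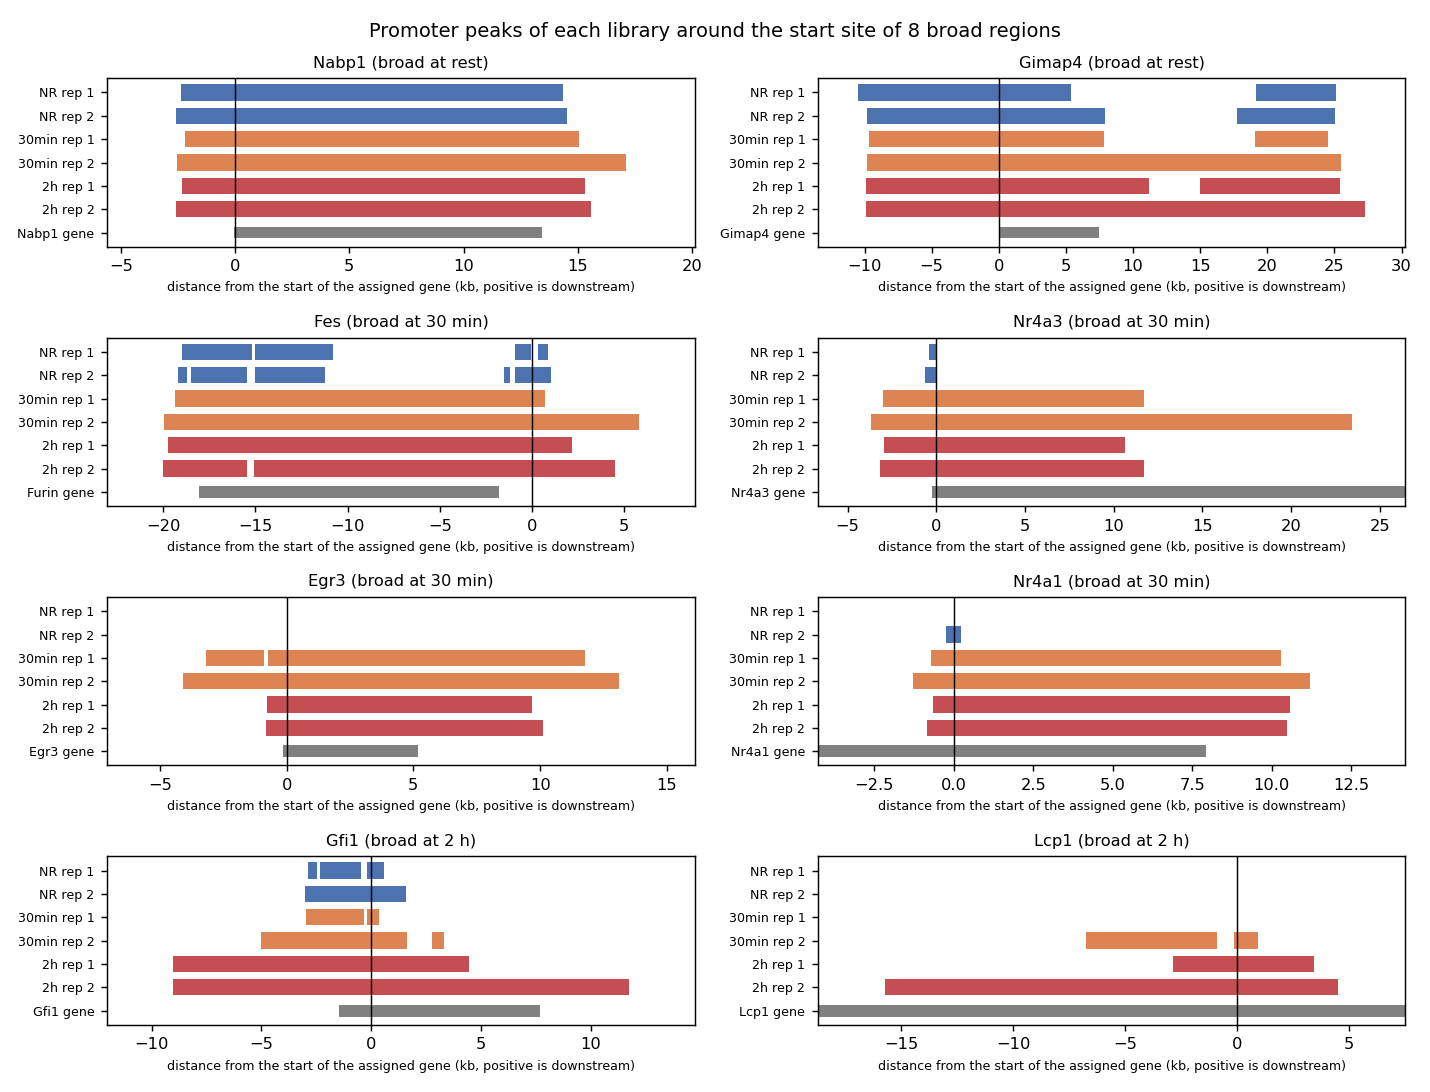
Promoter peaks of each library around the assigned start (vertical line; distance in kb, positive downstream) for 8 broad regions; blue is NR, orange 30 min, red 2 h, and grey bars are the RefSeq gene with most bp, cut at the panel edge. At Fes the NR libraries already have several separate peaks over Furin, while Egr3 has none at rest.

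Gains in width were split by side in the same way. For the class of 30 min the mean gain over NR had a median of 609 bp upstream and 4719 bp downstream, and 50 of 57 regions gained more downstream. The downstream median was 3404 bp in replicate 1 and 6182 bp in replicate 2, and 48 and 46 of 57 regions gained more on that side. At 2 h the medians were 604 bp upstream and 4346 bp downstream, with 111 of 128 regions gaining more downstream. The class broad at rest gained 314 bp upstream and 1528 bp downstream from NR to 2 h, and 53 of 62 gained more downstream. Over the 7728 regions with a peak in every library, 64.7% gained more downstream from NR to 30 min, with medians of 21 bp upstream and 81 bp downstream, and 69.6% did so from NR to 2 h, with 80 and 203 bp. The gains come from the same peaks that chose the classes and are given as a description.

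The side was tested on the percent of called bp of a region that lies downstream of the assigned start, with limma over the 7728 regions with a peak in all 6 libraries. None of the 529 members tested, and no other region, passed an adjusted p of 0.05 in any of the 3 comparisons (0% called). The percent is read from the same peaks as the widths that chose the members, so the counts of members below are a description and nothing is drawn from them. The smallest adjusted p from limma among members was 0.120 for 30 min and 0.107 for 2 h, each against NR, and 0.978 between the stimulated times. With the log2 ratio of downstream to upstream bp in place of the percent, 5 regions passed at 30 min (0.0647%), of which 4 were members (Rpl12, Egr2, Nr4a3 and Nop56), and 13 passed at 2 h (0.168%), of which 12 were members, 11 of them toward downstream. That ratio grows with total length where the upstream part is short. The regions of Rpl12, Egr2 and Nop56 were assigned to Snora65, Ado and Snord57, so their sides are counted from those starts. At an unadjusted p under 0.05 limma gave 618 regions at 30 min against NR (8.00%), 133 of them members (25.1% of members tested, 119 toward downstream). It gave 980 (12.7%) at 2 h against NR, with 167 members (31.6%, 138 toward downstream), and 235 (3.04%) at 2 h against 30 min, with 26 members (4.91%, 13 toward downstream). An exact permutation of 2 libraries against 2 cannot give a p under 0.333. The median difference in members was 6.40 points at 30 min and 6.90 points at 2 h against NR, beside 2.15 and 3.05 points over all regions tested. The estimate was above 0 in 389 of 529 members (73.5%, beside 62.1% of all regions) at 30 min and in 391 (73.9%, beside 64.5%) at 2 h against NR, and in 277 (52.4%, beside 53.7%) between 2 h and 30 min. Both comparisons with rest share the NR libraries. The median differences varied with the start site and with the library left out. By the start of the RefSeq gene with most bp, members had 1.58 points at 30 min and 1.45 points at 2 h against NR. All regions tested had 0.0662 and 0.188 points by that start. By the assigned start, the 30 min median of members was 3.41 points without replicate 2 of 30 min. Without replicate 1 of 30 min it was 9.49 points.

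By library, the median downstream share of members tested was 60.3% and 61.6% at rest, 70.6% and 78.1% at 30 min, and 73.4% and 74.4% at 2 h. For regions with no broad peak it was 55.4% and 54.2%, then 58.5% and 58.2%, then 60.3% and 58.7%. The class broad at rest stood at 72.7% and 75.2% at rest and between 74.2% and 77.8% in the stimulated libraries. Regions of the 30 min class had 68.0% and 65.3% at rest, 81.6% and 86.0% at 30 min, and 84.9% and 84.3% at 2 h. That class lay above the others in all 4 stimulated libraries.

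**Figure D4:**
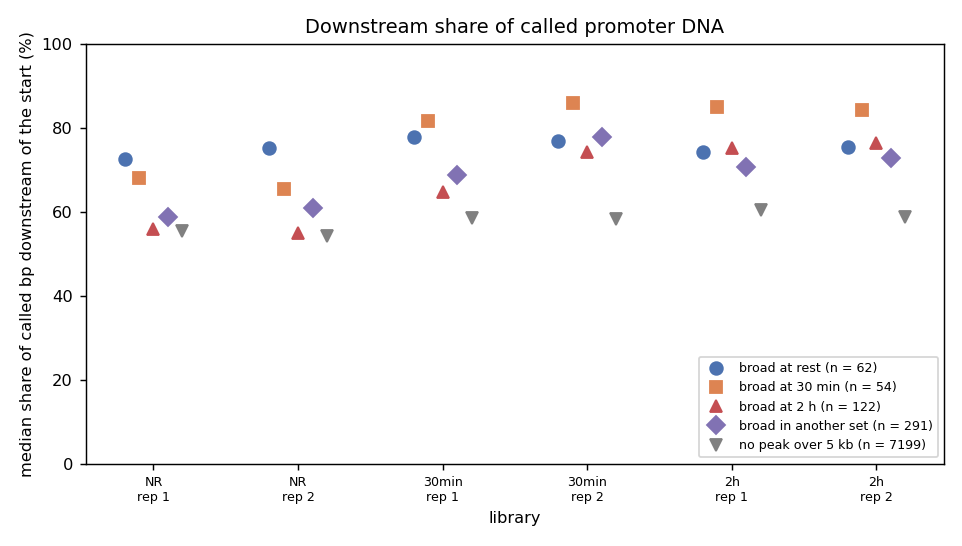
Median percent of called promoter DNA downstream of the assigned start in each library for the 4 classes of broad regions and for regions with no peak over 5 kb; each point is 1 library and points are shifted sideways for legibility. The class broad at 30 min goes from 68.0% and 65.3% at rest to 81.6% and 86.0% at 30 min, and regions with no broad peak stay between 54.2% and 60.3%.

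Single members carried large differences on either side that did not pass the correction. At Rpl12, a ribosomal protein gene whose region was assigned to Snora65, 0% of called DNA lay downstream of the small RNA gene's start in both NR libraries, 65.5% and 69.8% at 30 min, and 68.9% and 69.4% at 2 h (limma adjusted p = 0.120 for 30 min against NR). Nr4a3 had 11.1% and 1.91% downstream at rest, 79.6% and 86.4% at 30 min, and 78.2% and 78.6% at 2 h (limma adjusted p = 0.120). The Egr2 region, measured from the start of Ado, had 36.4% and 45.3%, then 92.4% and 93.5%, then 93.3% and 93.0%. In the region assigned to Limd2, over the kinase gene Map3k3, the shares were 47.0% and 45.3% at rest and 83.6% to 84.8% in the stimulated libraries. In the regions of Rpl12, Egr2 and Map3k3, downstream of the assigned start need not be downstream of the start of the gene named. These 4 regions were picked for the smallest p toward downstream in members. The gap between rest and stimulation follows from that choice, and nothing is drawn from it. At Nr4a3 the widest NR peaks had only 479 and 628 bp.

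Toward upstream, the Mir3074-2 region next to Zswim4 had 100% downstream in both NR libraries, 65.1% and 68.2% at 30 min, and 69.3% and 71.0% at 2 h (limma adjusted p = 0.120 for 30 min against NR). Mir3074-2 lies on the minus strand, and Mir23a, Mir27a and Mir24-2 of the same region lie on the plus strand. Its upstream direction is thus the downstream direction of those microRNA genes. The region assigned to Med22 went from 27.2% and 23.4% at rest to 13.2% and 8.61% at 30 min, and its called DNA lay mostly over the adjoining ribosomal protein gene Rpl7a. Sphk2 beside Rpl18 and P4hb beside Arhgdia had the same order, from 28.9% and 25.1% to 13.6% and 10.5%, and from 38.3% and 33.7% to 16.7% and 8.70%. In each of these 3 regions the gene with most bp is another than the assigned gene, so upstream of the assigned start is not upstream of that gene.

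At 2 h against 30 min, Rplp1, a ribosomal stalk protein gene, had 54.9% and 55.3% downstream at 30 min and 86.9% and 89.8% at 2 h (limma adjusted p = 0.978). At H2-T24 the shares were 56.1% and 50.3%, then 72.5% and 72.9%. Itgav, an integrin gene, had 55.0% and 56.2%, then 70.9% and 73.8%, and Cblb had 79.5% and 82.7%, then 91.7% and 92.9%. The region assigned to Trappc4, next to Rps25 and Ccdc84, had 40.9% and 46.2% at 30 min and 14.9% and 15.5% at 2 h. The Mir21a region had 64.7% and 64.8% at 30 min and 44.9% and 44.9% at 2 h. In Ldha the shares were 89.2% and 88.7%, then 71.3% and 77.3%, and in the Mir5103 region 55.5% and 66.2%, then 29.4% and 9.01%. In the Trappc4, Mir21a and Mir5103 regions the gene with most bp is another than the assigned gene. Upstream of the assigned start there need not be upstream of that gene.

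Many broad intervals ran over whole genes. Among 536 members with a RefSeq protein-coding gene under the widest peak, 168 (31.3%) had that gene covered from end to end, against 2.25% of all regions. Covered genes over 5000 bp long with the most bp were Irf8, Irf4, Furin, Selplg, Myo1g and Csrnp1. Selplg, the ligand of P-selectin, is broad at rest, and Csrnp1, a nuclear protein gene, at 30 min. The interval passed the 3′ end of the gene in 224 of 536 members, by a median of 3359 bp, beside 375 of 10549 regions with such a gene, by a median of 2323 bp. Egr3 is 5297 bp long, and its peak went 7925 bp past the 3′ end. Pim1 is 5327 bp long with 7475 bp past its end, and for Il21 that distance was 5143 bp.

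Members had shorter genes than other regions, with a median of 15292 bp against 24123 bp over all regions. The share of the gene covered had a median of 41.7% in members and 3.73% in all regions. A widest peak touched at least 2 coding genes in 174 members (31.8%), against 15.3% of all regions. Peaks of several assigned genes lay in 99 members (18.1% against 4.43%), and the assigned gene differed from the gene with most bp in 129 (23.5% against 14.1%). The summit of the widest peak was within 500 bp of the assigned start in 362 members (66.1%), against 85.4% of all regions. Longer intervals meet more genes and have more room for a distant summit, so these shares are descriptions of long peaks.

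In the NR libraries most regions of the classes of 30 min and 2 h held more than 1 peak summit. The stimulated libraries made these regions long, and longer DNA has more room for summits. No such count over all regions is given, so the counts are a description. In the class of 30 min, at least 3 peak summits of the list of all peaks lay inside the region in 37 of 57 cases in NR replicate 1 and in 35 of 57 in NR replicate 2. Only 6 and 5 regions had no summit or 1. The median number of summits was 3 in both NR libraries, 2 and 1 at 30 min, and 2 and 1 at 2 h. The class of 2 h had at least 3 summits at rest in 53 and 57 of 128 regions, and 27 and 22 had no summit or 1. When the widths of a library's promoter peaks in a region were summed, 79 regions were broad at rest, 62 at 30 min and 134 at 2 h, beside 62, 57 and 128 by the widest peak.

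Outside the merged regions, in DNA that took no part in the choice, genes of broad regions also carried polymerase peaks. This was counted as a summit of the list of all peaks, leaving out promoter peaks, in the rest of the gene with most bp, where over 5000 bp of it were left. For genes broad at rest (n = 25) a summit was found in 56.0% and 64.0% in the NR libraries, 56.0% and 88.0% at 30 min, and 68.0% and 92.0% at 2 h. In the class of 30 min (n = 25) the shares were 32.0% and 40.0%, then 52.0% and 88.0%, then 60.0% and 72%. Genes broad at 2 h (n = 68) had 29.4% and 38.2%, then 36.8% and 72.1%, then 57.4% and 79.4%.

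Genes with no broad region (n = 7754) had 11.8% and 14.1% at rest, 10.7% and 27.2% at 30 min, and 17.8% and 23.5% at 2 h. The rest of the gene had a median length of 38.3 kb in the class broad at rest, 35.0 kb in that of 30 min, 19.8 kb in that of 2 h and 27.7 kb in genes with no broad region. Per 100 kb of such DNA the class of 30 min had 1.09 and 1.19 summits at rest, 1.88 and 4.64 at 30 min, and 3.16 and 4.40 at 2 h. For genes with no broad region the values were 0.400 and 0.482 at rest, 0.350 and 1.09 at 30 min, and 0.648 and 0.893 at 2 h. Here the stimulated libraries lay above those of rest, except replicate 1 of 30 min, which lay below both. In the classes of 30 min and 2 h all stimulated libraries also lay above those of rest on this scale, except replicate 1 of 30 min in the class of 2 h (2.37 against 1.79 and 2.55). Genes are not replicates of a condition, and no test is given.

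**Figure D5:**
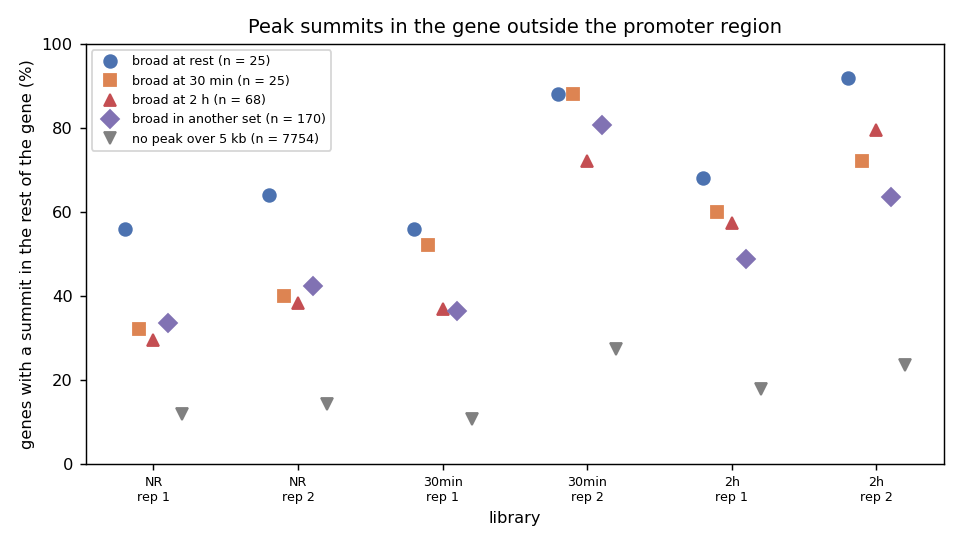
Percent of genes with at least 1 non-promoter peak summit in the part of the gene outside the merged region, per library, for the 4 classes of broad regions and for genes with no peak over 5 kb; points are shifted sideways for legibility. Genes with no broad region stay at or below 27.2% in all libraries, and genes broad at rest lie at 56.0% or above.

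Replicates were set against each other by choosing regions in replicate 1 and reading them in replicate 2. Of 76 regions broad in replicate 1 of 30 min and not in NR replicate 1, 75 (98.7%) were wider in replicate 2 of 30 min than in NR replicate 2, beside 85.5% of all regions. Their median gain was 6697 bp, against 227 bp over all regions. For 2 h it was 216 of 218 (99.1%, beside 83.2% of all regions), with a median gain of 5418 bp against 261 bp. In the other direction 301 of 382 regions chosen in replicate 2 of 30 min (78.8%) were wider in replicate 1 than at rest, beside 34.1% of all regions, with a median gain of 616 bp against 0 bp. For 2 h it was 292 of 296 (98.6%, beside 76.4%), with 3686 bp against 284 bp. Of the regions chosen in replicate 1, 76 of 76 at 30 min and 206 of 218 at 2 h were also above 5 kb in replicate 2. Of those chosen in replicate 2, 62 of 382 at 30 min and 181 of 296 at 2 h were above 5 kb in replicate 1. Regions are not replicates of a condition, and the widths read here also chose the members. These counts are a description, and nothing is drawn from them.

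Widths at the stimulated times were also set side by side. Of the 57 regions of the 30 min class, 8 were wider at 2 h than at 30 min with no overlap between the groups, 2 were narrower and 47 overlapped, beside 15.6% and 0.619% of all regions. For 2 h, 41 of 128 (32.0%) were wider at 2 h than at 30 min and 87 overlapped. In the class broad at rest, 49 of 62 were wider at 2 h than at rest and 1 was narrower, beside 48.4% and 1.41% of all regions. At 30 min 23 of these 62 were wider than at rest and none was narrower, beside 10.4% and 0.464%. The rule read these widths, and nothing is drawn from the counts.

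Promoters were searched for motifs in the RefSeq windows of 300 bases that could be matched, 374 for members and 7400 for all regions. A ratio of observed to expected CpG under 0.5 was found in 25.4% of members, against 12.8% of all regions, and in 36.2%, 33.3% and 22.6% in the classes of rest, 30 min and 2 h. The TATA motif TATAAA, searched on both strands, was in 11.8% of members and 6.03% of all regions, and CCGGAAG in 11.2% against 21.4%. The AP-1 type motif TGANTCA was in 4.81% against 4.49%, the CRE type motif TGACGTCA in 3.21% against 3.45%, and the CArG box in 2.41% against 1.11%. In all 32851 promoters of the RefSeq table the shares were 13.6% for TATAAA, 8.86% for CCGGAAG, 7.81% for TGANTCA, 1.79% for TGACGTCA and 1.63% for the CArG box. A match is a string of letters, not a bound site.

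Hairpins of 35 microRNA genes lay inside the widest peaks of members, out of 107 inside those of all regions. The mature sequences of those best known in T cells are shown because their regions fall into different classes; capitals mark the seed, bases 2 to 8, which pairs with target RNAs. The sequences are RefSeq's, with coordinates of GRCm38.p6.
mmu-miR-21a-5p, chr11:86584120-86584141, minus strand: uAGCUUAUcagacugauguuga
mmu-miR-142a-3p, chr11:87756903-87756925, plus strand: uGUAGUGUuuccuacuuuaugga
mmu-miR-155-5p, chr16:84714143-84714165, plus strand: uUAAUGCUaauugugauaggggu
mmu-miR-17-5p, chr14:115043684-115043706, plus strand: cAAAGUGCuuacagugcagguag
mmu-miR-20a-5p, chr14:115044183-115044205, plus strand: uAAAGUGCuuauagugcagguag
mmu-miR-18a-5p, chr14:115043867-115043889, plus strand: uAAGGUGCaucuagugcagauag
mmu-miR-19a-3p, chr14:115044048-115044070, plus strand: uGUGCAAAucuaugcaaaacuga
mmu-miR-19b-3p, chr14:115044358-115044380, plus strand: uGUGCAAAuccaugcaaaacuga
mmu-miR-92a-3p, chr14:115044476-115044496, plus strand: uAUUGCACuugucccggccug

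Mir21a and Mir142 lay in regions broad at rest. The Mir21a region, which overlaps Vmp1, had 11724 and 11826 bp at rest, 12817 and 13238 bp at 30 min, and 18717 and 18725 bp at 2 h, so all 3 groups were apart. The Mir142 region had 8404 and 7807 bp, then 8154 and 20163 bp, then 19252 and 19354 bp. Mir155, which lies in its host Mir155hg, was in the class of 2 h: the host had no promoter peak at rest, none and 1123 bp at 30 min, and 5342 and 17245 bp at 2 h. The cluster of Mir17, Mir18, Mir19a, Mir20a, Mir19b-1 and Mir92-1 had no peak at rest, 872 and 6946 bp at 30 min, and 4569 and 8967 bp at 2 h. Within it miR-17-5p and miR-20a-5p share a seed, as do miR-19a-3p and miR-19b-3p. Peaks over a hairpin measure polymerase on the DNA and not the mature microRNA.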

How the data were processed

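RNA polymerase II ChIP-seq peaks of 6 libraries were used (chromatin fixed in 1% formaldehyde for 10 min, fragments of 360 to 600 bp, per the labels). H3K36me3 (3 libraries) and input (1 library) were not analysed here. The submitters' processing notes list BWA 0.7.13, Picard 1.119, MACS2 2.1.0 and mm10, without role or order. Peaks were deposited per library, not pooled. Per the file headers, the deposited tables of promoter peaks (within 1000 bp of a start site, each assigned by the authors to 1 gene) give the width, the pileup signal at the summit, the fold enrichment (a ratio over the local background) and −log10 values of p and q. The authors' deposited summit lists of all peaks hold −log10 q. Pileup, fold and −log10 q only described, ranked or filtered peaks within their own list, apart from the background level implied by pileup and fold, taken as (pileup + 1)/fold − 1. The lists hold no counts. For the tool that assigned genes, a name was not given in the sources used here.

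Promoter peaks were merged at 1 bp overlap in Python 3.11.15 with pandas 2.3.3. The members, gene lists and markers were chosen with earlier results of these data known. Genes named are the 8 widest per class, listed genes (values for at most 4 per list, widest first), the 6 with most upstream bp and with most gene covered, the 3 on each side of the threshold, and the 4 with the smallest p per direction. Other genes given with values, among them Nr4a1, Cd40lg, Tnfaip3, Rgs16, Ccnl1, Myc, Nfkbia and the microRNA regions, were named after their values were seen. Some members and markers are not reported here. RefSeq tables (GRCm38.p6, the coordinates of mm10) matched 10985 of 10991 assigned genes and gave gene ends, promoters and microRNAs.

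The downstream share was fitted with limma 3.58.1 (lmFit, eBayes with a trend; R 4.3.3) with group as the only term, Benjamini-Hochberg over 7728 regions, two-sided; the fit was tested on simulated data. Over these regions, deviations of same-numbered libraries from their group means correlated at 0.312 (NR and 30 min), 0.196 (NR and 2 h) and 0.325 (30 min and 2 h). Such correlations cannot tell libraries paired by origin from other differences that libraries of the same number share. The main fit did not pair the libraries, and a fit with a replicate block, which did, is given below as an alternative.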

Additional observations from a re-analysis of the deposited data

How the results depend on the processing

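The count of members and its classes were recomputed under other settings. At 4000 bp 106 regions were broad at rest. Asking for 1 library of a group in place of both gave 110 at rest, 376 at 30 min and 62 at 2 h. With the 139 widest peaks of each library, chosen after seeing the data, 286 regions were members, 108 at rest, 20 at 30 min and 19 at 2 h, of which 62, 20 and 16 are in the same class by the 5000 bp rule. Leaving out each library in turn gave 412 to 548 members, 62 to 104 at rest (104 without NR replicate 1), 57 to 376 at 30 min (376 without 30 min replicate 1) and 22 to 235 at 2 h (22 without 30 min replicate 1, 235 without 2 h replicate 1). The median downstream share was 89.0% by the RefSeq gene with most bp, a start also added after seeing the data, and 78.0% to 79.5% without each library. Regions chosen in replicate 2 and wider in replicate 1 at 30 min were 78.8%, and at 4000 bp the share chosen in replicate 1 was 100%.

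In the downstream share the log2 ratio called 5 regions at 30 min and 13 at 2 h, and the paired fit with the replicate block called 0 in each comparison, as did each fit without a library. Another 91 planned and 3 added values kept their side or moved by less than the limits set. Unknown depth limits every width.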

Other observations

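Genes of the interferon response lay in a broad region in 8 of 20 cases, with a median widest peak of 4310 bp, beside 4.99% and 1292 bp over all regions. Irf1, the factor that relays interferon signals to many of these genes, was in the class of 30 min, with 2151 and 3236 bp at rest, 5016 and 12200 bp at 30 min, and 3391 and 5588 bp at 2 h. Socs1, an inhibitor of cytokine signalling, was broad at rest, with 7033 and 7050 bp. The other 6 (Igtp, Gbp3, Gbp5, Gbp7, Tap1 and Psmb9) exceeded 5000 bp in replicate 2 of 30 min and in no other library. Igtp, an interferon-inducible GTPase gene, had 3046 and 4052 bp at rest, 4479 and 13306 bp at 30 min, and 4620 and 4478 bp at 2 h. Their breadth therefore has no second library behind it.

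Histone, microRNA and small nucleolar RNA genes lay in a broad region in 78 of 232 cases, with a median widest peak of 2964 bp, and 32 of the 78 were in the class of 2 h. Many of them share a region with a ribosomal protein or nucleolar gene. The region of Nop56, a core protein of small nucleolar ribonucleoproteins, holds Snord57 and Snord110, and had 1489 and 1497 bp at rest, 2158 and 9369 bp at 30 min, and 9435 and 9759 bp at 2 h.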
